A study of Mus musculus with 10 samples.

Results

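The genes of the cytosolic ribosomal proteins were examined in O9-1 cells, a mouse cell line of cranial neural crest origin, after inactivation of Kat5 or Ep400. A gene was included when its symbol was one of the standard names of these proteins (Rpsa, Rplp0, Rplp1, Rplp2, or Rps or Rpl followed by a number and, where present, one of the suffixes a, x, l, al or l1) and when the unedited wildtype cells had a mean of 50 counts or more. Of 43346 genes in the count table, 85 carried such a symbol and 79 reached the limit. By symbol alone, 31 were assigned to the small 40S subunit and 48 to the large 60S subunit. RNA from 10 libraries had been sequenced: 4 of wildtype O9-1 cells (WT), 3 of Kat5 ko clones (Kat5/1 to Kat5/3) and 3 of Ep400 ko clones (Ep400/1 to Ep400/3). Each clone arose from a single sorted EGFP-positive cell. Before sorting, an EGFP plasmid had been co-transfected with a plasmid for Cas9 and a guide against Kat5 or Ep400. The paper names passage 2 after sorting for the RNA used in RT-PCR and no passage for the sequenced RNA. O9-1 cells are tetraploid, and some alleles of Ep400/2 and Ep400/3 carry deletions that keep the reading frame. No transfection, sorting or cloning is described for the WT cells, so the knockout and the handling of a clone cannot be told apart in the comparisons with WT.

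Every cytosolic ribosome holds a single copy of nearly all of these proteins, which are built onto ribosomal RNA in the nucleolus and completed in the cytoplasm. Their genes are among the most strongly transcribed in dividing cells. Their mRNAs begin with a run of pyrimidines, the 5' TOP motif, through which mTOR and the binding protein Larp1 control their translation and stability. The neural crest is sensitive to a shortage of ribosomes, as seen in the craniofacial features of Diamond-Blackfan anaemia, which results from mutations in ribosomal protein genes. Kat5, an acetyltransferase, and Ep400, an ATPase, belong to the same chromatin remodelling complex, which acetylates histones and exchanges the histone variant H2A.Z at promoters.

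The libraries held between 30968945 and 48301792 gene counts. Kat5 transcripts in the Kat5 ko clones stood at 38.7% of the WT mean, and Ep400 transcripts in the Ep400 ko clones at 36.8%. Of 15 markers of cranial neural crest, 12 exceeded 1 CPM (normalised read count scaled by library size) in WT, while Foxd3 and Sox10 were at 0 and Msx2 was below 1. The summed level of the 15 markers ran from 1710 to 1970 CPM in WT, from 1730 to 1930 in the Kat5 ko clones and from 2440 to 3720 in the Ep400 ko clones. Markers of endothelium summed to at most 1.61 CPM in any library, those of blood to at most 0.734 and those of epithelium to at most 4.78. Those of neurons and glia summed to 3.86 to 7.09 in WT, 2.89 to 11.5 in the Kat5 ko clones and 12 to 24.2 in the Ep400 ko clones, and those of smooth muscle to 5.84 to 16.6, 0.461 to 685 and 2.37 to 58.8. The summed levels of osteochondral markers (74.6 to 118 in WT) and of markers of fibroblast feeder cells (1380 to 1820 in WT) overlapped between all groups. Of the 7 osteochondral markers, Bglap, Matn1, Ibsp, Col2a1 and Sp7 did not exceed 1 CPM in WT. Of the 4 feeder markers, Lum and Thy1 did not. The part of these levels in the results was not tested. WT/3 and Ep400/3 stood apart from their groups. Mitochondrial transcripts made up 2.43% of counts in WT/3 against 1.20% to 1.78% in the other WT libraries, and 3.24% in Ep400/3 against 1.58% and 1.99% in the other Ep400 ko clones.

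The 79 genes were abundant in WT. Levels between genes were compared as CPM divided by the length in kilobases of the shortest annotated coding transcript. The median gene had 1006 CPM per kilobase, with the middle 50% of the genes between 716 and 1429. The highest levels belonged to Rpl41 (3038 ± 820.1, SD, n = 4), which encodes one of the smallest proteins of the cell, to the stalk protein gene Rplp1 (2603 ± 392) and to Rps24 (2471 ± 388). The lowest belonged to the paralogue Rpl7l1 (121 ± 20), to Rps20 (230.0 ± 19.4) and to the paralogue Rpl36al (244 ± 24.7). The highest level was 25.1 times the lowest. The order rested on the transcript length. When the joined exons of every annotated transcript were used as the length, Rplp1, Rplp0 and Rps15 were highest and Rpl7l1, Rps15a and Rpl22l1 lowest, so that Rplp1 and Rpl7l1 kept their places among the extremes.

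**Figure D1:**
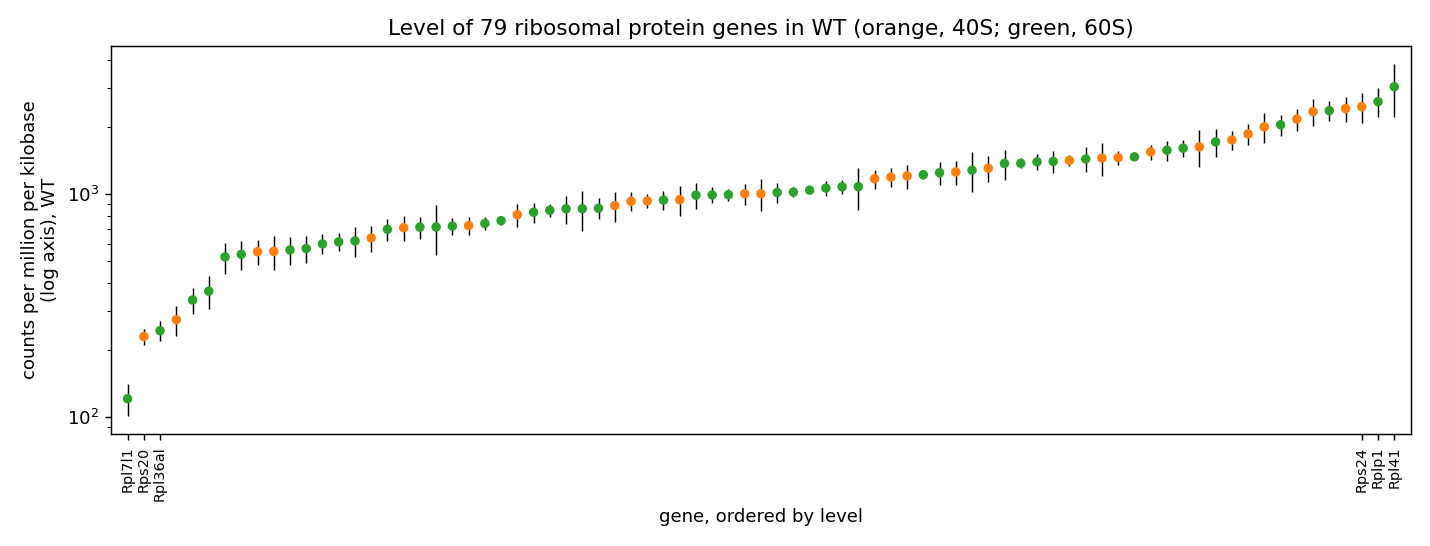
Level of each of the 79 genes in WT as CPM per kilobase of the shortest coding transcript, on a log axis, with genes ordered by level and the 3 highest and 3 lowest named. Points are means and bars SDs of the 4 WT libraries, orange for 40S and green for 60S genes. The middle 50% of the genes lie between 716 and 1429, and Rpl7l1 (121) stands below all others.

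At the limit of 50 counts the gap was wide. The lowest gene inside, Rpl36al, had a WT mean of 4771 counts. The 6 symbols outside were Rpl24 (15), Rps4l (11.8), Rps12l1 (5.75), Rpl3l (0.75), Rpl39l (0.5) and Rpl10l (0), and the highest count of any of them in any library was 41. The row of Rpl24 overlaps another annotated gene on the same strand, Gm28037, so its counts do not give the level of this gene. Rpl3l, Rpl10l and Rpl39l are paralogues known from muscle and testis.

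Together the 79 genes took a smaller share of all gene counts in the Ep400 ko clones than in WT. The share was 7.26%, 7.57%, 6.14% and 6.57% in the WT libraries. It was 6.60%, 6.03% and 5.66% in Kat5/1 to Kat5/3, and 5.75%, 5.50% and 4.59% in Ep400/1 to Ep400/3. All 3 Ep400 ko clones lay below the lowest WT library, and so did Kat5/2 and Kat5/3, while Kat5/1 lay within the WT range. Kat5/3 was also below Ep400/1, so the ranges of the Kat5 ko and Ep400 ko clones overlapped. WT had a mean of 6.89% ± 0.65 (SD, n = 4). The Kat5 ko mean was 6.10% ± 0.48 (SD, n = 3), and the Ep400 ko mean was 5.28% ± 0.61 (SD, n = 3), which is 76.6% of that of WT. Counting error was negligible next to this spread, as shown by the exact 95% binomial interval in WT/3 of 6.13% to 6.14%. In bulk RNA a lower share can come from fewer transcripts of these genes per cell or from more of all others, and these cannot be told apart, nor can a change in total RNA per cell be seen.

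**Figure D2:**
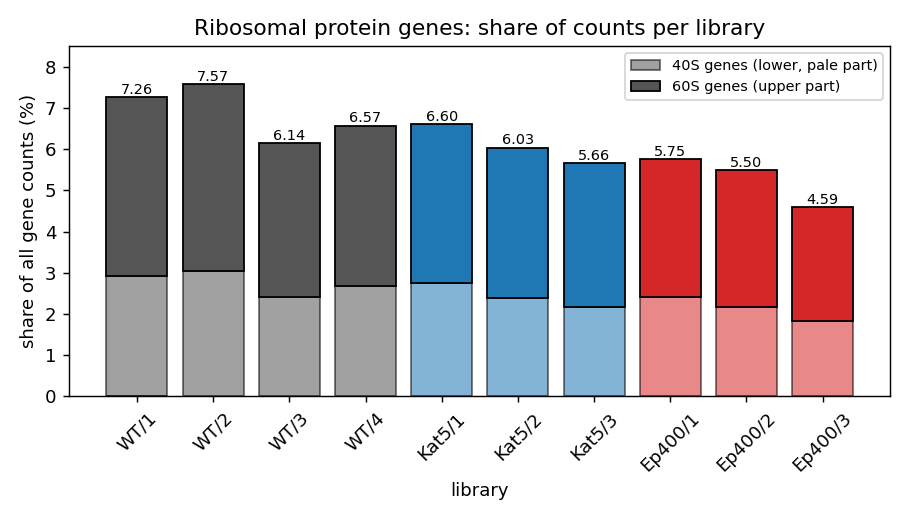
Share of all gene counts that fell on the 79 genes, in percent, for each of the 10 libraries (grey, WT; blue, Kat5 ko; red, Ep400 ko). The pale lower part of each bar is the 40S genes and the full upper part the 60S genes. The total stands above the bar. The 3 Ep400 ko bars (4.59 to 5.75) are all shorter than the shortest WT bar (6.14), as are those of Kat5/2 and Kat5/3.

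The balance between the subunits varied little. The counts of the 60S genes divided by those of the 40S genes ranged from 1.45 to 1.55 in WT, from 1.40 to 1.6 in the Kat5 ko clones and from 1.39 to 1.53 in the Ep400 ko clones, and the 3 ranges overlapped. Within WT the share on the 79 genes was lowest in WT/3, the library with the highest mitochondrial share, and among the Ep400 ko clones it was lowest in Ep400/3, again the library with the highest mitochondrial share. WT/1 and Ep400/2 had nearly the same mitochondrial share, 1.55% and 1.58%, and their shares on the 79 genes were 7.26% and 5.50%. For WT/4 and Ep400/1 the mitochondrial shares were 1.78% and 1.99%, and the shares on the 79 genes lay closer together, at 6.57% and 5.75%. Ep400/3 also had the most genes with at least 10 counts, 14329 against 13154 to 13667 in WT. The part of these library differences in the result was not tested.

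The comparison of Ep400 ko clones with WT asked whether loss of the ATPase alters these transcripts. All 79 log2-fold changes were below 0, from -0.88 for Rpl13a to -0.03 for Rplp0, with a median of -0.42 against 0.04 for the 13836 genes tested, of which 46.9% were below 0. No gene changed as much as 2-fold. Of the 79 genes, 10 were lower at an adjusted p of at most 0.05 and 0 were higher (edgeR quasi-likelihood test, Benjamini-Hochberg over all genes tested). The background for this count was 5.72% of all genes lower and 8% higher, and the 10 genes made up 12.7% of the 79. In 33 of the 79 genes (41.8%) every Ep400 ko clone was below every WT library, which held for 14.1% of all genes, and in 0 genes was every clone above, which held for 16.1%. The clone medians, relative to the WT mean, were -0.30, -0.23 and -0.70 in Ep400/1 to Ep400/3. The genes also moved together within WT, where 76 of the 79 were below the WT mean in WT/3 and 2 in WT/2. The 79 genes are therefore not 79 independent observations, and their shared direction carries no p-value. The number of genes past the threshold rested on few libraries. It was 1 without WT/1 or without WT/4, 2 without WT/2, 8 without Ep400/3 and 9 without WT/3, while the median of the 79 stayed between -0.52 and -0.30. With DESeq2 in place of edgeR 29 of the 79 were lower, at 10.5% of all genes.

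**Figure D3:**
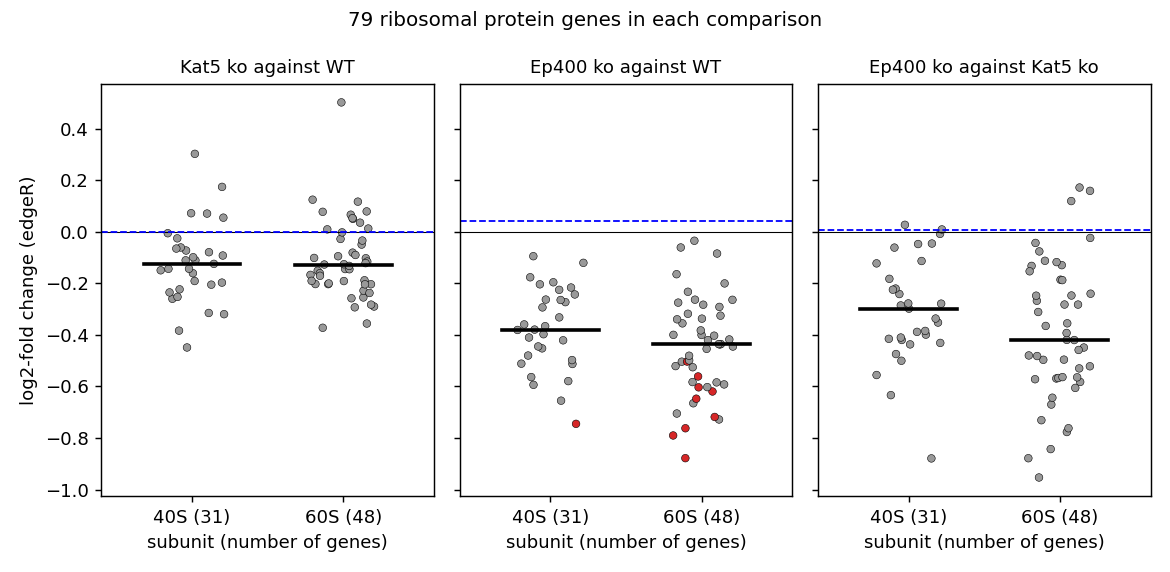
Log2-fold change of each of the 79 genes (edgeR) in the 3 comparisons, split into 40S and 60S genes. Each point is a gene, red where the adjusted p was at most 0.05; black lines are medians of the genes and the dashed blue line is the median of all genes tested. In the middle panel every point lies below 0 and 10 are red, and in the outer panels no point is red.

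The gene with the largest difference was Rpl13a (chr7:45125558-45128761, positions in build GRCm38), a 60S protein that is also released from the ribosome in inflammatory signalling. It had 1423, 1440.0, 1126 and 1242 CPM in the WT libraries and 807, 766 and 562 in Ep400/1 to Ep400/3. The groups did not overlap, and the log2-fold change was -0.88 ± 0.19 (SE, adjusted p = 0.0188), or 54.4% of the WT level. Rpl22l1 (chr3:28805436-28807424), the paralogue of Rpl22, had 177, 169.7, 151 and 206 CPM in WT and 105, 99.6 and 101 in the Ep400 ko clones. These clones differed among themselves by less than the WT libraries did, and the log2-fold change of Rpl22l1 was -0.79 ± 0.14 (SE, adjusted p = 0.0116). It was the only one of the 10 genes that passed the threshold whichever library was left out.

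Rpl26 (chr11:68901583-68906989), whose protein lies near the exit of the peptide tunnel and which also binds p53 mRNA, had 726, 810.3, 667 and 738 CPM in WT and 445, 489.6 and 367 in the Ep400 ko clones. Its log2-fold change was -0.76 ± 0.16 (SE, adjusted p = 0.0183), again without overlap. Rps27a (chr11:29545846-29548109) is the single 40S gene among the 10 and is made as a fusion with ubiquitin. It had 917, 954, 837 and 905 CPM in WT and 591, 603 and 424 in the Ep400 ko clones, giving a log2-fold change of -0.74 ± 0.17 (SE, adjusted p = 0.0246). Ep400/3 was the lowest library for both genes.

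Rpl3 (chr15:80077791-80091868), which reaches towards the peptidyl transferase centre, had 1382, 1459, 1282 and 1401 CPM in WT and 832, 903 and 785 in the Ep400 ko clones. The 3 clones were close to each other and the log2-fold change was -0.72 ± 0.14 (SE, adjusted p = 0.0158). A row named as its pseudogene, Rpl3-ps1, carried 12.6% of the counts of Rpl3 in WT, so reads may have been divided between the copies. Rpl10 (chrX:74270812-74273135), a protein added in the last steps of 60S maturation, had 1344, 1263, 1147 and 1392 CPM in WT and 722, 983 and 761 in the Ep400 ko clones, with Ep400/1 lowest, and a log2-fold change of -0.65 ± 0.17 (SE, adjusted p = 0.0389).

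The other 4 genes were Rpl30, Rpl19, Rpl4 and Rpl7. Rpl30 (chr15:34440505-34443640) fell from 591, 613, 589.9 and 585 CPM to 437, 424 and 301, a log2-fold change of -0.62 ± 0.17 (SE, adjusted p = 0.0424). Rpl19 (chr11:98026710-98030492), which forms a bridge between the subunits, had 584, 582, 553 and 526 in WT and 376, 439 and 294 in the clones, a log2-fold change of -0.60 ± 0.17 (SE, adjusted p = 0.0472). Rpl4 (chr9:64173375-64178666), which lines the peptide tunnel, had 2225, 2303, 2241 and 2286 in WT and 1679, 1608 and 1318 in the clones, a log2-fold change of -0.56 ± 0.15 (SE, adjusted p = 0.0446). In all 3 genes the WT libraries were close together and the clones lay below them. Rpl7 (chr1:16101295-16104662) had 1415, 1430.1, 1358 and 1492 in WT and 1042, 1027 and 945 in the clones, a log2-fold change of -0.50 ± 0.14 (SE, adjusted p = 0.0452). Just past the threshold on the other side were Rpl29 (adjusted p = 0.0508), Rpl37 (adjusted p = 0.0524) and Rpl8 (adjusted p = 0.0542), whose log2-fold changes were -0.60, -0.58 and -0.73. Several of the 10 genes overlap another annotated gene, Rpl13a and Rpl19 on the same strand (Gm45713 and Gm11629), and Rpl22l1, Rps27a, Rpl3 and Rpl30 on the opposite strand (Gm33051, Clhc1, Syngr1 and D730044K07Rik), and the strand setting of the counting is not given in the sources used here.

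**Figure D4:**
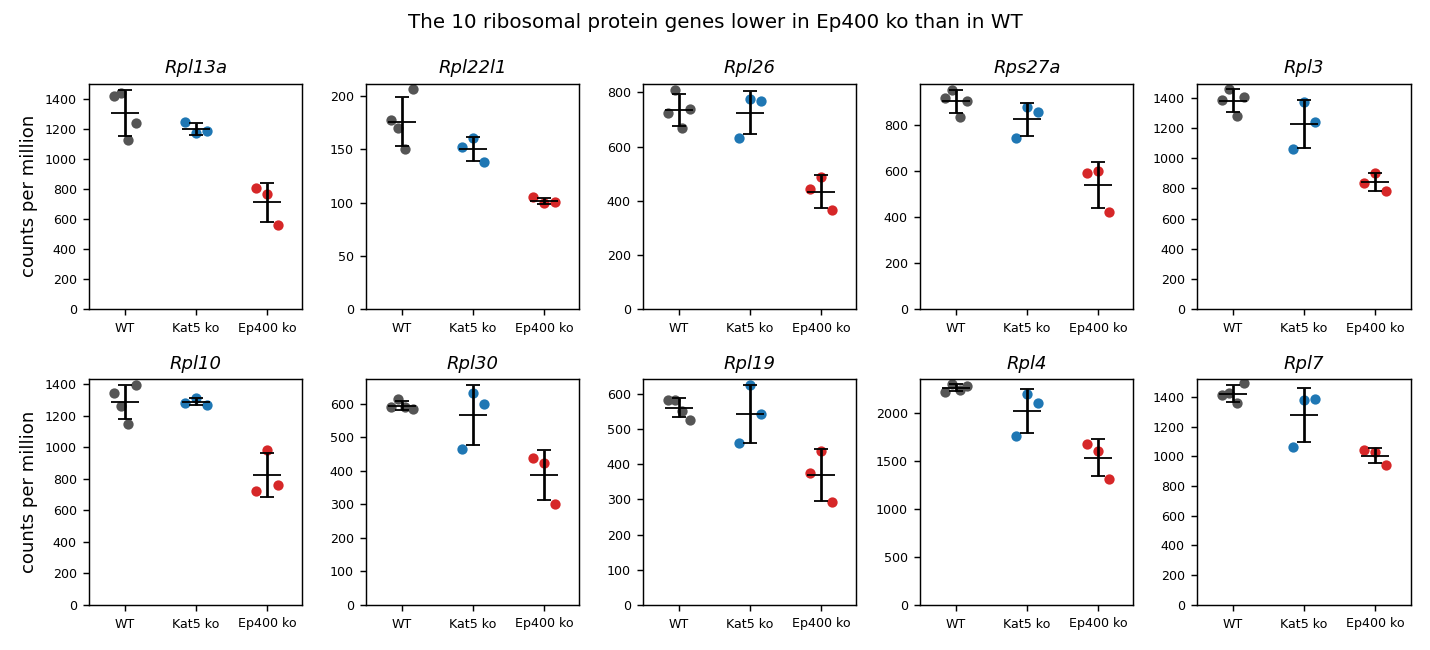
CPM of the 10 genes that were lower in the Ep400 ko clones than in WT, on axes that start at 0. Each point is a library (grey, WT; blue, Kat5 ko; red, Ep400 ko) and the bars are mean ± SD; in every panel the 3 red points lie below the 4 grey ones.

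At the other end, Rplp0, Rpl37a and Rpl31 had the smallest differences. Rplp0, the base of the ribosomal stalk and a common reference gene in RT-PCR, had 3636, 3328, 2904 and 3023 CPM in WT and 3275, 3462 and 2706 in the Ep400 ko clones, giving a log2-fold change of -0.03 ± 0.17 (SE, adjusted p = 0.904). The groups overlapped. The values of Rpl37a and Rpl31 were -0.06 ± 0.19 (SE, adjusted p = 0.854) and -0.08 ± 0.17 (SE, adjusted p = 0.759). The stalk as a whole was near the upper end of the 79, since Rplp1 and Rplp2, which form its flexible arms, had log2-fold changes of -0.16 and -0.26 that did not pass the test.

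The sequences around the annotated transcription start are shown for the 6 of the 10 genes that a table of RefSeq promoters (build GRCm38.p6) contained and for the 3 genes with the smallest differences, so that the start regions of both kinds can be set side by side. Each runs 5' to 3' on the strand of the gene from 60 bases before the start to 20 bases from it, and capitals mark runs of 8 or more pyrimidines.
Rpl13a, chr7:45128726-45128805, minus strand: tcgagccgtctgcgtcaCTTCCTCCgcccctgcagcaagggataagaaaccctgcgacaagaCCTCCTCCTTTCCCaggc
Rpl22l1, chr3:28805448-28805527, plus strand: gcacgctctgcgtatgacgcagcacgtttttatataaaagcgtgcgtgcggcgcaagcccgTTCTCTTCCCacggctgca
Rpl26, chr11:68901506-68901585, plus strand: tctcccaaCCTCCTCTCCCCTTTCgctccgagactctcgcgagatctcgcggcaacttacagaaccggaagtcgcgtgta
Rpl10, chrX:74270756-74270835, plus strand: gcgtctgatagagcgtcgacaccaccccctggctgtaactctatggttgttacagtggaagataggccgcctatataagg
Rpl19, chr11:98026650-98026729, plus strand: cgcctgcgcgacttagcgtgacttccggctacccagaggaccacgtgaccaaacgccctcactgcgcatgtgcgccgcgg
Rpl4, chr9:64173327-64173406, plus strand: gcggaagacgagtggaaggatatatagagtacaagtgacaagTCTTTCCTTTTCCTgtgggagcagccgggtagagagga
Rplp0, chr5:115559407-115559486, plus strand: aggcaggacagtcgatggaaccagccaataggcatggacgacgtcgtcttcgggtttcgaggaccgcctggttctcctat
Rpl37a, chr1:72711200-72711279, plus strand: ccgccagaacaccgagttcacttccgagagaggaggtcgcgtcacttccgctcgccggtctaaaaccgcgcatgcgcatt
Rpl31, chr1:39367791-39367870, plus strand: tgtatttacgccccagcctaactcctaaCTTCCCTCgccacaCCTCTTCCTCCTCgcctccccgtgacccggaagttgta
Rpl13a and Rpl22l1 show a pyrimidine run that begins within 5 bases of the annotated start, Rpl4 and Rpl26 show a run further upstream, and Rpl10 and Rpl19 show none in this window. Of the genes with the smallest differences, Rpl31 has 2 such runs and Rplp0 and Rpl37a have none, so both kinds hold genes with and without a run. The annotated starts were not checked against these libraries, whose reads were not used here.

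The table held 59 of the 79 genes with 70 start sites. A run of 8 or more pyrimidines that began within 5 bases of the start was found in 30% of the 70 windows and in 5.76% of all 32851. Over the whole window of 250 bases before to 50 after the start, CGGAAGT, the core of ETS family sites, was present on either strand in 31.4% of the windows of these genes against 6.42% of all. CTCGCGAG, a palindrome found in promoters of housekeeping genes, was present in 11.4% against 0.919%. AAGATGG, the core of the YY1 motif, was present in 17.1% against 6.34%, the E-box CACGTG in 11.4% against 7.15% and TATAAA in 10% against 13.6%. Of the 6 genes shown as lower, Rpl26 and Rpl19 held CGGAAGT, Rpl13a and Rpl19 held CACGTG, Rpl26 held CTCGCGAG, Rpl13a held AAGATGG and Rpl22l1 held TATAAA. No motif was found in all 6. CGGAAGT also stood in the printed sequences of Rpl31 and, on the opposite strand, of Rpl37a, which are among the genes with the smallest differences.

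By position in the ribosome, the differences in the Ep400 ko clones were spread over both subunits. The median log2-fold change was -0.38 over the 31 genes of the 40S subunit, of which 1 was lower, and -0.44 over the 48 genes of the 60S subunit, of which 9 were lower. The counts that follow stand beside 5.72% of all genes lower. Among 10 proteins around the peptide exit tunnel 3 were lower (Rpl4, Rpl19 and Rpl26), with a median of -0.44. The 6 proteins along the mRNA channel had a median of -0.50 and 0 passed the test. Rps28, which contacts the mRNA at the exit side, was at -0.51 ± 0.17 (SE, adjusted p = 0.0753). Rpl5 and Rpl11, which with 5S rRNA form the particle that binds Mdm2 when ribosome assembly fails, were at -0.40 ± 0.19 (SE, adjusted p = 0.181) and -0.32 ± 0.19 (SE, adjusted p = 0.285). Of 21 genes mutated in Diamond-Blackfan anaemia 1 was lower, Rpl26, which is near the share of all genes, and the median was -0.36. Rps19, the gene most often mutated in this disease, was at -0.23 ± 0.19 (SE, adjusted p = 0.438). Rpsa, a 40S protein first described as a laminin receptor, had 2406, 2535, 2145 and 2252 CPM in WT and 2091, 1698 and 1333 in the Ep400 ko clones. Every clone was below WT, and its log2-fold change of -0.45 ± 0.19 (SE, adjusted p = 0.138) did not pass the threshold. Introns of 29 of the 79 genes held 56 annotated small nucleolar RNAs on the same strand. Of these hosts 5 were lower, with a median of -0.44, and of the 50 other genes 5 were lower, with a median of -0.41.

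The 79 genes lie on 19 chromosomes, and the transcripts of whole chromosomes were shifted in some libraries, the unedited WT/3 among them. In WT/3 the median log2 ratio to the WT mean over all genes of chromosome 16 was -0.30. The median log2 ratio to WT over all genes of chromosome 11 was -0.19, -0.19 and -0.24 in Ep400/1 to Ep400/3. The 7 ribosomal protein genes there had a median log2-fold change of -0.60, and Rpl26, Rps27a and Rpl19 were 3 of the 10 lower genes. On chromosome 15 the shifts were -0.12, -0.10 and -0.13, and its 4 genes, among them Rpl3 and Rpl30, had a median of -0.67. On the X chromosome Ep400/1 was shifted by -0.31, and for Rpl10, which lies there, Ep400/1 was the lowest clone. Chromosome 17 was shifted by -0.30 in Ep400/2 and by -0.33 in Kat5/3. After each library's shift of the chromosome had been taken out, 9 of the 79 genes were lower, at 5.51% of all genes, and the median was -0.41. Of the 10 genes, 6 were among the 9. Rps27a, Rpl10, Rpl30 and Rpl19 no longer passed. Chromosome 7 held the most of these genes, 14, and was shifted by 0.01 to 0.09. Their median was -0.32, and Rpl13a was the only one to pass the test.

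**Figure D5:**
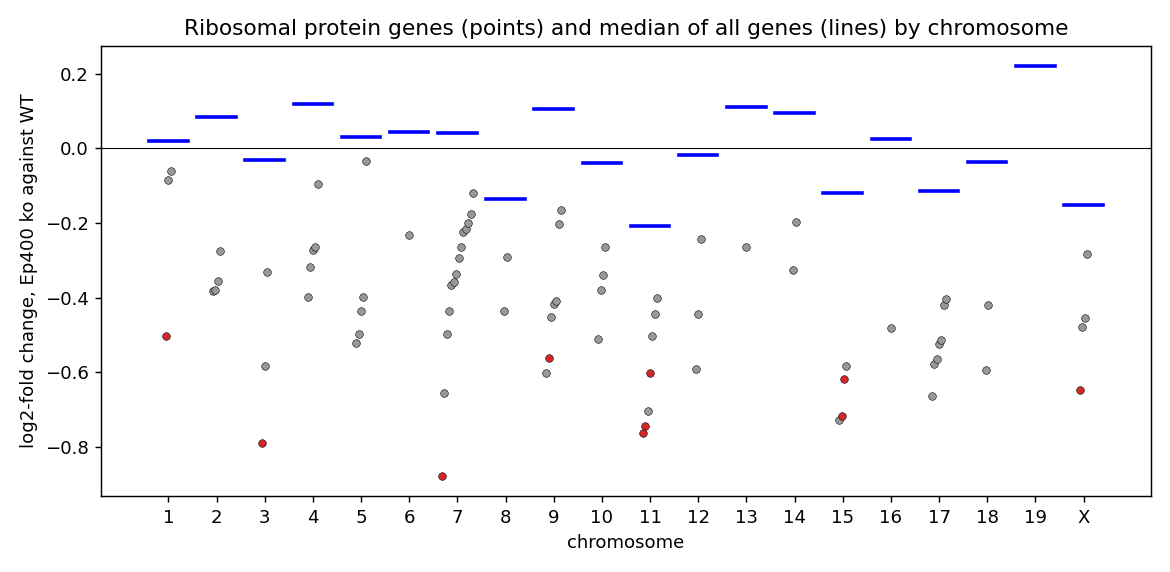
Log2-fold change of each of the 79 genes in the comparison of Ep400 ko clones with WT, by chromosome. Points are genes, red where the adjusted p was at most 0.05; blue lines are the mean over the 3 clones of the median log2 ratio to WT of all genes on the chromosome, and on every chromosome with these genes the points lie below the line.

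In the Kat5 ko clones 0 of the 79 genes passed the test against WT in either direction (edgeR), at a background of 0.447% of all genes lower and 0.179% higher. At an unadjusted p of at most 0.05 there was 1 of the 79 genes against 22.3% of all genes, and DESeq2 and limma-voom also called 0. DESeq2 called 6.3% of all genes lower in this comparison and limma-voom 0.566%. The log2-fold changes ran from -0.45 for Rps28 to 0.50 for Rpl7l1, with a median of -0.13 against 0.00 over all genes tested, and 63 of the 79 were below 0. Every Kat5 ko clone was below every WT library in 5 genes (6.33%), namely Rpl37a, Rpl22, Rpl4, Rpl23a and Rpl23, which held for 10.2% of all genes. The reverse held for 0 of the 79 and for 9.67% of all genes. The clone medians were -0.02, -0.05 and -0.14. Without Kat5/1, 3 of the 79 genes were lower, and the share of all genes is not given for this fit. When a trend with gene length and GC content was taken out of each library, the median was -0.02, and without WT/2 it was -0.06. The median of WT/3 alone was -0.16 relative to the WT mean, further below 0 than that of any Kat5 ko clone.

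Among the genes with the smallest p-values in this comparison, none of which passed the threshold, were Rpl7l1, Rpl37a, Rpl23 and Rpl39. Rpl7l1 had 169, 179.6, 120.3 and 166 CPM in WT and 177, 303 and 209 in Kat5/1 to Kat5/3. Kat5/1 lay within the WT range, and the log2-fold change was 0.50 ± 0.21 (SE, adjusted p = 0.213). Rpl37a had 635, 634, 539 and 571 in WT and 501, 519 and 477 in the clones, a log2-fold change of -0.28 ± 0.13 (SE, adjusted p = 0.233). Rpl23, whose protein also binds Mdm2, was at -0.25 ± 0.12 (SE, adjusted p = 0.257), and Rpl39, a small protein of the exit tunnel, at -0.37 ± 0.18 (SE, adjusted p = 0.263). The SE of a single gene had a median of 0.15 in this comparison, so differences of about this size could not be separated from the spread between libraries.

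Set directly against each other, the Ep400 ko clones and the Kat5 ko clones differed in 0 of the 79 genes by edgeR, at a background of 2.83% of all genes lower and 4.22% higher in the Ep400 ko clones. At an unadjusted p of at most 0.05 there were 18 of the 79 against 32.4% of all genes, DESeq2 called 12 lower, at 10.4% of all genes, and limma-voom 0, at 3.21% of all genes. When all 10 libraries were fitted together, which takes the spread from WT as well, 13 were lower, at 12.1% of all genes. The median log2-fold change was -0.37 against 0.01 over all genes, and 74 of the 79 were below 0. Every Ep400 ko clone was below every Kat5 ko clone in 36 genes (45.6%), against 18% of all genes, and 0 genes showed the reverse, against 20.5%. Among the smallest p-values were those of Rpl26, Rpl27, Rpl13a and Rpl22l1. For Rpl26 the Kat5 ko clones had 633, 776 and 768 CPM and the Ep400 ko clones 445, 489.6 and 367. These ranges did not overlap, and the difference was -0.76 ± 0.21 (SE, adjusted p = 0.0644), which passed without Kat5/1 (adjusted p = 0.048). Rpl27, Rpl13a and Rpl22l1 were at -0.88, -0.78 and -0.58, with adjusted p-values of 0.0671, 0.0678 and 0.0688. The largest difference of all was that of Rpl7l1, -0.95 ± 0.31 (SE, adjusted p = 0.0888). The comparisons with WT share the WT libraries, and this one shares its clones with both.

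Some paralogues of ribosomal proteins can take the place of their partners in the ribosome. Whether those examined here do so was not tested. Of the paralogues in the table, Rpl22l1, Rps27l, Rpl36al and Rpl7l1 reached the limit of 50 counts. Each was set against its partner within the same library, a ratio that does not depend on the scaling of libraries. Every paralogue lies on another chromosome than its partner, so the shifts of whole chromosomes remain in the ratios. Their part in the ratios was not tested. With 3 clones against 4 WT libraries the exact two-sided permutation test cannot go below p = 0.0571, so none of the 8 tests made could pass 0.05, and the smallest adjusted p was 0.114. The ratio of Rpl22l1 to Rpl22 was 0.514, 0.446, 0.493 and 0.619 in WT, 0.5, 0.533 and 0.493 in the Kat5 ko clones and 0.403, 0.329 and 0.349 in the Ep400 ko clones. The Ep400 ko clones lay below all WT libraries (p = 0.0571, exact permutation test), while the Kat5 ko clones lay within them. Rpl22 itself had 345, 381, 305 and 333 CPM in WT and 261, 303 and 289 in the Ep400 ko clones, with a log2-fold change of -0.26 ± 0.14 (SE, adjusted p = 0.228) that did not pass the test. In mice Rpl22 protein is known to repress the Rpl22l1 transcript.

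The ratio of Rps27l to Rps27 was 0.324, 0.341, 0.310 and 0.330 in WT and 0.454, 0.419 and 0.601 in the Kat5 ko clones, which lay above WT (p = 0.0571, exact permutation test). In Ep400/1 to Ep400/3 it was 0.499, 0.294 and 0.301, so 1 clone was above and 2 below the WT range. Rps27l is a target of p53. Rps4x, the X-linked partner of Rps4l, was at -0.48 ± 0.17 (SE, adjusted p = 0.0919) in the Ep400 ko clones. The ratio of Rpl7l1 to Rpl7 was 0.119, 0.126, 0.0886 and 0.111 in WT, 0.166, 0.220 and 0.151 in the Kat5 ko clones and 0.158, 0.106 and 0.0913 in the Ep400 ko clones. Here the Kat5 ko clones again lay above WT (p = 0.0571, exact permutation test). The ratio of Rpl36al to Rpl36a was nearly constant in WT, at 0.305, 0.305, 0.307 and 0.314. It was 0.214, 0.435 and 0.444 in the Kat5 ko clones, and 0.298, 0.238 and 0.211 in the Ep400 ko clones, which were all below WT (p = 0.0571, exact permutation test). The Kat5 ko clones lay on both sides of WT.

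Some ribosomal proteins have symbols outside the rule. Rps3a is listed as Rps3a1 and the copies Rps3a2 and Rps3a3, among which reads can be divided. In the Ep400 ko clones Rps3a2 was lower, at -0.61 ± 0.15 (SE, adjusted p = 0.0307), and Rps3a1 and Rps3a3 were at -0.39 ± 0.19 (SE, adjusted p = 0.185) and -0.38 ± 0.16 (SE, adjusted p = 0.133). Rack1, a 40S protein listed as Gnb2l1, had 1935, 1960.3, 1924 and 1802 CPM in WT and 1276, 1355 and 928 in the Ep400 ko clones. It was lower by the test, at -0.68 ± 0.17 (SE, adjusted p = 0.0359), a call that was lost (adjusted p = 0.085) once the shift of chromosome 11 had been taken out, and it was at -0.04 ± 0.13 (SE, adjusted p = 0.881) in the Kat5 ko clones. Fau, which encodes a ubiquitin-like fusion of the 40S protein eS30, was at -0.27 ± 0.19 (SE, adjusted p = 0.359) in the Ep400 ko clones.

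Other genes whose mRNAs carry a 5' TOP motif were examined as a list of translation factors and related proteins. Of 21 tested, 6 were lower and 0 higher in the Ep400 ko clones, with a median log2-fold change of -0.48, at a background of 5.72% of all genes lower and 8% higher. In 13 of the 21 every Ep400 ko clone was below every WT library, against 14.1% of all genes and 33 of the 79 ribosomal protein genes. In the Kat5 ko clones 0 of the 21 passed, with a median of -0.04. The lower genes were Npm1, Eef1g, Hnrnpa1, Rack1, Eif3l and Eif3h. Npm1, a nucleolar chaperone of ribosome assembly, ranged from 1656 to 1933 CPM in WT and from 721 to 1249 in the Ep400 ko clones, giving a log2-fold change of -0.88 ± 0.21 (SE, adjusted p = 0.0274). Eef1g, a subunit of the elongation factor that recharges eEF1A, ranged from 1407 to 1764 CPM in WT and from 666 to 1077 in the Ep400 ko clones, at -0.82 ± 0.20 (SE, adjusted p = 0.0296). Tpt1 and Eif3f had values in the opposite direction, 0.57 ± 0.21 (SE, adjusted p = 0.0978) and 0.22 ± 0.14 (SE, adjusted p = 0.31), which did not pass the test. Eif3f was the 1 gene of the 21 in which every Ep400 ko clone was above every WT library, which held for 16.1% of all genes. All Npm1, Eef1g and Rack1 values of the clones lay below WT.

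Among 18 regulators of the translation of these mRNAs, 1 was lower and 1 higher in the Ep400 ko clones, which is near the share of all genes (5.72% lower, 8% higher), and 0 passed in the Kat5 ko clones. Larp1, the protein that binds and stabilises TOP mRNAs, ranged from 336 to 369 CPM in WT and from 139 to 233 in the Ep400 ko clones. Its log2-fold change was -0.86 ± 0.19 (SE, adjusted p = 0.0224) in the Ep400 ko clones and 0.70 ± 0.25 (SE, adjusted p = 0.163) in the Kat5 ko clones, and in the direct comparison of the clones it was lower in the Ep400 ko clones, at -1.61 ± 0.36 (SE, adjusted p = 0.0458). Mlst8, a subunit of both mTOR complexes, was higher in the Ep400 ko clones, at 0.65 ± 0.18 (SE, adjusted p = 0.0462), and Mtor was at 0.03 ± 0.12 (SE, adjusted p = 0.892).

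Of 22 tested chaperones, import receptors and assembly factors of ribosomal proteins, 0 passed in either comparison with WT. The shares of all genes were 5.72% lower and 8% higher in the Ep400 ko clones, and 0.447% and 0.179% in the Kat5 ko clones. In 6 of the 22 every Kat5 ko clone was above every WT library and in 1 below, against 9.67% and 10.2% of all genes. Every Ep400 ko clone was below WT in 6 and above in 0, against 14.1% and 16.1%. The medians of the 22 were 0.55 in the Kat5 ko clones and -0.30 in the Ep400 ko clones. The median in single clones was close to 0 in Kat5/1, 0.84 in Kat5/2 and 0.68 in Kat5/3, and -0.14, -0.16 and -0.74 in Ep400/1 to Ep400/3, so Kat5/1 and Ep400/3 differed from their group. Grwd1, the chaperone of Rpl3, was at 1.02 ± 0.26 (SE, adjusted p = 0.0889) in the Kat5 ko clones. Between the clones, Rpf2, which brings Rpl5 and Rpl11 into the 60S precursor, was lower in the Ep400 ko clones, at -1.50 ± 0.34 (SE, adjusted p = 0.0466). It was the only 1 of the 22 to pass there, at 2.83% of all genes lower.

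Of 20 genes of the p53 response, which a failure of ribosome assembly can set off, 1 was higher and 1 lower in the Ep400 ko clones, which is near the share of all genes (8% higher, 5.72% lower), and 0 passed in the Kat5 ko clones. Phlda3 was higher, at 0.75 ± 0.20 (SE, adjusted p = 0.0393), and Plk2 lower, at -1.61 ± 0.33 (SE, adjusted p = 0.0166). Cdkn1a, the best known target of p53, was at -0.01 ± 0.14 (SE, adjusted p = 0.958) in the Ep400 ko clones and at 0.01 ± 0.32 (SE, adjusted p = 0.987) in the Kat5 ko clones. The mitochondrial ribosome has proteins of its own, encoded by other nuclear genes. Of 76 such genes tested, 3 were lower in the Ep400 ko clones and 0 higher, with a median of -0.14, and 0 passed in the Kat5 ko clones, with a median of 0.09. The 3 lower genes compare with 5.72% lower among all genes. In 8 of the 76 every Ep400 ko clone was below every WT library, which held for 14.1% of all genes.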

How the data were processed

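The authors sequenced poly(A) RNA (TruSeq Stranded mRNA, paired reads, NovaSeq) and deposited whole-number read counts per gene for 10 libraries. Per the labels, reads were demultiplexed with bcl2fastq 2.20 and aligned to mm10 with STAR 2.7.3, and the submitters' processing notes also name DESeq2 1.36.0 and R 4.2.1. The counting program, its strand setting and the annotation release are not given in the sources used here. Groups came from the sample titles.

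Genes were filtered with filterByExpr and tested in each pair of groups by edgeR 4.0.16 (TMM, robust dispersions, quasi-likelihood test), with Benjamini-Hochberg adjustment over all genes tested and a threshold of 0.05. The ko libraries are separate clones, and the WT libraries are described as biologically independent samples of the line, so p-values measure the spread between clones and between such samples. Libraries of a group differed by more than sampling noise. CPM (counts per library size) were scaled by TMM over all 10 libraries. Exact binomial intervals cover counting error only. DESeq2 1.42.0, limma 3.58.1 (voom), other scalings, filters and offsets, and each library left out were alternatives, and the scripts were tested on simulated data. Positions and transcripts came from GENCODE M21, in which 42462 of 43346 gene identifiers and all 79 genes were found. Length was taken from the shortest coding transcript with a consensus coding sequence and not from all exons as first planned, and joined exons were tried as an alternative chosen after seeing the data.

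The genes examined and all lists were chosen with earlier results of these data known. Named were the genes past the threshold (up to 10 per direction, or the 5 with the smallest p where fewer than 5 passed), paralogues and their partners, stalk and 5S proteins, Rpsa, Rps27a, the 3 highest and 3 lowest per kilobase, and ribosomal protein genes outside the rule. Some genes that this rule names are not reported here. Further genes named as examples (such as Rps28, Rps19 and the genes of the lists) were chosen after their values were seen.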

Additional observations from a re-analysis of the deposited data

Results flagged for a closer look

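Rpl39 and Rps24 each had 1 WT library far from the other 3. Rpl39 had 277 CPM in WT/3 and 365 to 378 in the other WT libraries, a gap of 0.872 of the range of the group. Rps24, among the highest of these genes per kilobase of the shortest coding transcript, had 886 in WT/3 and 1212 to 1267 in the others, a gap of 0.856. Both gaps exceed Dixon's 95% limit for 4 samples. Of 37 named genes tested 2 passed it, and chance passes about 1 group in 20. Over all 79 genes 4 passed. WT/3 was also the WT library with the lowest share of counts on these genes and the highest share of mitochondrial counts.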

How the results depend on the processing

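The Ep400 ko clones had 10 lower genes of 79 against WT, at 5.72% of all genes lower. This count changed with library size as the only scaling (17, at 5.6% of all genes) and with DESeq2 (29, at 10.5%). It also changed with offsets for length and GC content (20, at 7.78%) and with the replicate block (0, at 0.499%). It ranged from 1 to 11 with a library left out, while the median log2-fold change stayed below 0 throughout. For Ep400 ko against Kat5 ko the count of 0, at 2.83% of all genes lower, became 12 with DESeq2 (at 10.4%). It became 13 with all libraries in one fit (at 12.1%) and 5 with length and GC offsets (at 4.81%). With a library left out it ranged from 0 to 2. For Kat5 ko against WT it was 0 with each alternative tool, scaling, filter and offset and ranged from 0 to 3 with a library left out. The Kat5 ko median was -0.021 with length and GC offsets and ranged from -0.18 to -0.058 with a library left out. Without the 20 most abundant other genes the mean share was 7.51% in WT, 6.58% in the Kat5 ko and 5.84% in the Ep400 ko clones. The WT median level was 403 CPM per kilobase of joined exons. Scaled by library size only, 11 genes were lower in every Kat5 ko clone (5 before) and 1 was higher in every Ep400 ko than in every Kat5 ko clone (0 before). The share of all genes is not given for these counts or for fits with a library left out. The cause of the differences between settings was not tested. Replicate numbers were shared between groups, but the samples share only a number: same-numbered deviations correlated at -0.13 to 0.241 in 9 pairs, 3 of them over 0.1, and a sample matched its own number best in 4 of 18 checks. Among single named genes and settings, 66 lost a call in Ep400 ko against WT, and calls were gained in 2, 14 and 26 instances in the Kat5 ko, Ep400 ko and direct comparisons. No value reversed. The small number of libraries, not the depth, limits the precision.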
